A study of Mus musculus with 12 samples.

Results

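The nuclear genes of respiratory chain complexes III and IV and of the ATP synthase, complex V, were examined in cultured brown adipocytes given a very low dose of chlorpyrifos (CPF), an organophosphate insecticide. Members were chosen by name, as genes beginning with Uqcr, Uqcc, Atp5 or Cox and a digit, together with Cyc1, Cycs, Bcs1l, Ttc19, Sco1, Sco2, Surf1, Atpaf1 and Atpaf2, with a mean normalised count of at least 5 over the libraries. This gave 62 genes of the 14775 in the table. They comprised 14 genes of complex III, 16 of the subunits of complex IV with the supercomplex factor Cox7a2l, 12 for the assembly of complex IV, 18 of complex V, the electron carrier cytochrome c (Cycs) and the pseudogene Atp5l2-ps. The names alone matched the same 62 genes in the table, and the members nearest to the minimum were Sco2 (mean 6.45), Atp5l2-ps and Cox16. The deposited table is labelled as filtered, so genes of lower counts may be missing from it.

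RNA was sequenced from TMCON cells, an immortalized line of murine brown preadipocytes, on day 9 of differentiation. Fully differentiated cells received either 1 pM CPF or the vehicle dimethyl sulfoxide for 4 h in a buffered salt solution with albumin, and 6 libraries were made for each group. No adrenergic agonist is named for either group, and the cells are a single immortalized line in culture, without the nerves, vessels and immune cells of the tissue. Whether each replicate is a culture of its own is not stated, and the p-values therefore reflect only how far the libraries of a group scatter, which may be technical.

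Complex III takes electrons from ubiquinol and hands them to cytochrome c, complex IV passes them to oxygen, and both pump protons across the inner mitochondrial membrane. Complex V lets protons flow back through a ring of c subunits and makes ATP. Brown adipocytes are rich in mitochondria and can bypass complex V through the uncoupling protein UCP1, which turns the proton gradient into heat. Several small subunits of complex IV exist in a common form and in a form found mainly in heart, skeletal muscle and brown fat, among them Cox7a1 and Cox8b.

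Between 7875502 and 14166615 reads per library were recovered from the normalised counts (median 9906195.5 in vehicle and 10672437.5 in CPF). Vehicle replicate 2 and CPF replicate 1 stood apart on the first principal component of all genes, with scores of 31.5 and 33.0. The scores were −6.42 to 6.12 in the other vehicle libraries and −13.7 to −10.3 in the other CPF libraries. Apart from these 2 libraries the groups thus did not overlap on this component. Results are also given without the 2. Of 12 brown adipocyte markers 11 were in the table, with Ucp1 at 1238 to 5204 normalised counts, and Dio2 was not. The summed normalised counts of 9 preadipocyte and fibroblast markers were 40045 to 76171 in vehicle and 36921 to 49894 in CPF, highest in vehicle replicate 2 and CPF replicate 1. Of 8 muscle markers the table held Acta1 and Tnnt2, which together summed to 27.5 to 80.9, and Myod1, Myog, Myf5, Ckm, Myh1 and Myh6 were not in it. Of 4 macrophage markers it held Cd68 (97.5 to 155 normalised counts), and neither of 2 endothelial markers was in it. Absence from this filtered table does not show that a gene gave no reads.

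The 62 genes together took 1.78 to 2.07% of the reads in the vehicle libraries and 1.57 to 2.21% in the CPF libraries (medians 1.94 and 2.06%). The lowest share was that of CPF replicate 1 (1.57%, 95% Wilson interval 1.56 to 1.58%, for counting error only). Atp5b, the catalytic β subunit of the ATP synthase, alone took 0.455 to 0.629% of the reads. Per kilobase of exon it was also the most abundant member, at 13318 ± 369 normalised counts per kb in vehicle (SD, n = 6). The next were 3 subunits of complex IV, Cox6a1 at 11133 ± 390, Cox8a at 10268 ± 545 and Cox4i1 at 9409 ± 610. The most abundant gene of complex III was Cyc1, the haem-bearing cytochrome c1 (3842 ± 225 per kb), and among the assembly genes of complex IV it was Cox14 (1506 ± 100.3 per kb).

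In complex III, all 9 subunit genes had at least 1385 normalised counts per kb (Uqcrq), whereas the 5 assembly genes had at most 354 (Uqcc2), down to 50.2 ± 4.84 for Ttc19, which clears fragments of the Rieske protein. The assembly genes of complex IV other than Cox14 ranged from 210 (Surf1) to 40.3 (Sco1) per kb, except for Sco2 at 4.03 and Cox16 at 2.60. The exons of Sco2 and Cox16 overlap those of other genes on the same strand, so their levels are uncertain. In complex V the lowest was Atpaf1, a chaperone of the F1 β subunit, at 42.0 ± 1.12. Exon length here counts every annotated exon, which lowers the value of genes with long rare transcripts. With the length of the principal transcript instead, Atp5l stood at 1473 rather than 124 per kb and Cox4i1 at 19065 rather than 9409, above Cox6a1 at 13687. By that length Uqcrc1 also stood above Cyc1 in complex III, and Atp5g1 below Atpaf1 in complex V.

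**Figure D1:**
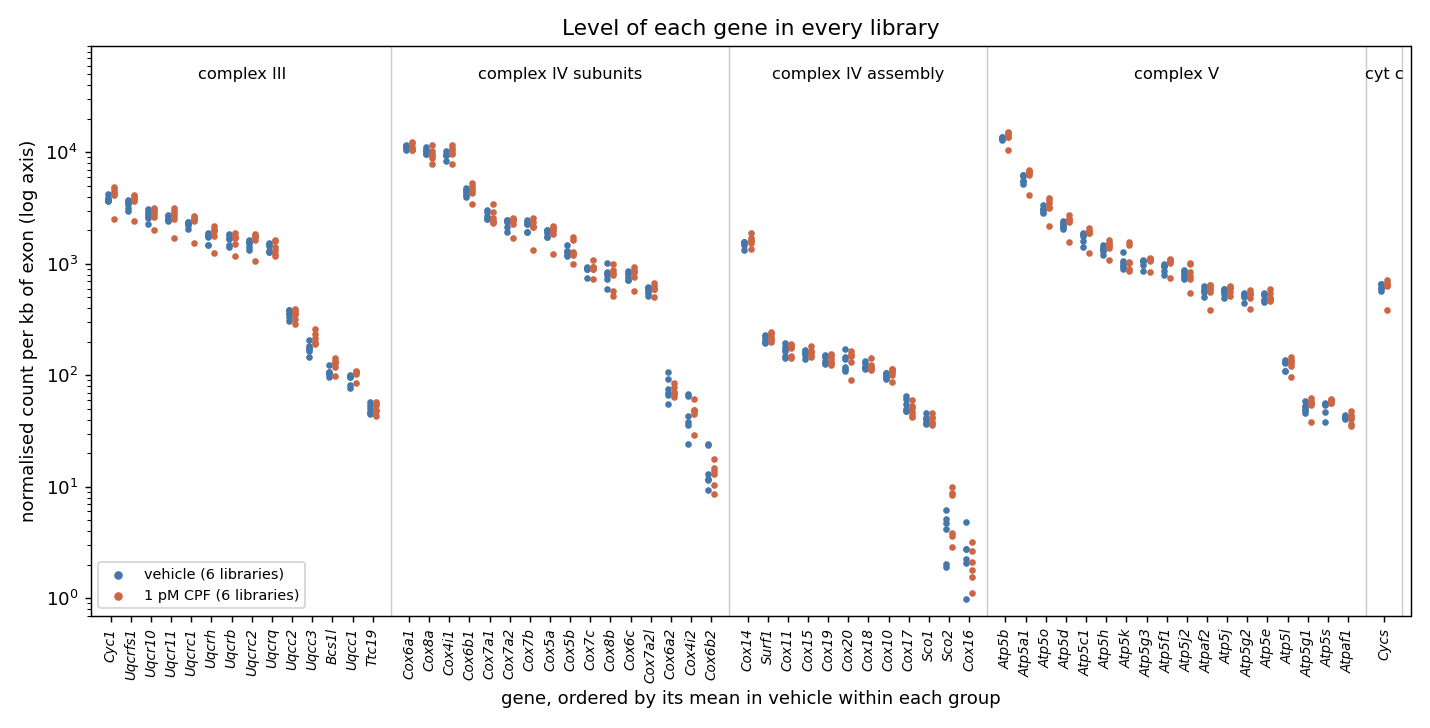
Normalised count per kb of exon (log axis) of 61 members in each of the 12 libraries, 1 point per library, vehicle in blue and 1 pM CPF in orange, ordered within each group of genes by the mean in vehicle (the pseudogene is not shown). The orange point below the others in most subunits is CPF replicate 1.

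Promoters are shown for members whose shared elements or lack of them bear on genes described here, since many subunit genes carry sites for nuclear respiratory factor 1 (NRF1), a regulator of genes for mitochondrial proteins. The sequences run from 250 bases before to 50 after the first listed start (RefSeq, GRCm38.p6, 48 of the 62 members matched), and capitals mark matches on either strand to NRF1 (GCGCATGCG or GCGCANGCG, which include each other), ERR (TCAAGGTCA) or CREB (TGACGTCA) letters.
Cycs (chr6:50566520-50566819, minus strand): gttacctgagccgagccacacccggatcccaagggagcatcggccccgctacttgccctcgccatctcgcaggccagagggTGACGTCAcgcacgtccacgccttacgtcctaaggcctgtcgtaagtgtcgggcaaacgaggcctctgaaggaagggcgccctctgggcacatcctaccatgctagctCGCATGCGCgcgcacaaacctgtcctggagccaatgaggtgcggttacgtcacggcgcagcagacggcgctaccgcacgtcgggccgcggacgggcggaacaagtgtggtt
Cox6a1 (chr5:115348909-115349208, minus strand): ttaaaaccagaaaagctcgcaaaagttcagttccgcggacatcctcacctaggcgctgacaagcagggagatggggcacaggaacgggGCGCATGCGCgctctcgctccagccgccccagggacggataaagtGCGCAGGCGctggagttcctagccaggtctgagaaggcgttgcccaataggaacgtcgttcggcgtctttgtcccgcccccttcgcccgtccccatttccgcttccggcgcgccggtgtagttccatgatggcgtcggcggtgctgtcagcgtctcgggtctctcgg
Atp5g2 (chr15:102670998-102671297, minus strand): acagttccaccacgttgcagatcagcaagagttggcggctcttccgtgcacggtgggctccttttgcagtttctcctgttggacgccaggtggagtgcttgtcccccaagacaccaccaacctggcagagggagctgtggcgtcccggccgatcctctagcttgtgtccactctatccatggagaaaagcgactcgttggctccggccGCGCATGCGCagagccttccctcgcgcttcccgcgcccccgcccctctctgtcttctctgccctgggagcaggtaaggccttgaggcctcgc
Ttc19 (chr11:62281223-62281522, plus strand): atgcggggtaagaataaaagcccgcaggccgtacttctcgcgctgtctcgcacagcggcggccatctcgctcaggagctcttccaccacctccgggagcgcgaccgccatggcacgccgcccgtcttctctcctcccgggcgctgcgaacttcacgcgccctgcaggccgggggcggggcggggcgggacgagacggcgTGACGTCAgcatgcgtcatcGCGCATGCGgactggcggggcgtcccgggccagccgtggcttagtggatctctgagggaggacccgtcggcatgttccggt
Atp5g3 (chr2:73911277-73911576, minus strand): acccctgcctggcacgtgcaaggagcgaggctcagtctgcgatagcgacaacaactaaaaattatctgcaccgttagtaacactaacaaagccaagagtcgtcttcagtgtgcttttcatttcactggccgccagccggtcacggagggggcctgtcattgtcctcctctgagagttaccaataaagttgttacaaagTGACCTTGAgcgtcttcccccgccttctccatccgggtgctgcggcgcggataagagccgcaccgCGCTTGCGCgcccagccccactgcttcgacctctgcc
Cox7a1 (chr7:30183921-30184220, plus strand): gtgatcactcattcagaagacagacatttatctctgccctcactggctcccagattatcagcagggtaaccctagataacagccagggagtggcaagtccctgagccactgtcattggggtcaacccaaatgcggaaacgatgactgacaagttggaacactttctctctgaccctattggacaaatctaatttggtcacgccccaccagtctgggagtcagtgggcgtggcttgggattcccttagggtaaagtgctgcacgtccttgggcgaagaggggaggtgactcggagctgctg
Cox8b (chr7:140900397-140900696, minus strand): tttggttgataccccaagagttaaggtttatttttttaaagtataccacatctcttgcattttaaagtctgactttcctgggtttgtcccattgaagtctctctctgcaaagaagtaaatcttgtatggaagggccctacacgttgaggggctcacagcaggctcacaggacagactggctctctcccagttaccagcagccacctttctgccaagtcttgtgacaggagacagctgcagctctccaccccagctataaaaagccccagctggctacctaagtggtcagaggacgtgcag
GCGCATGCG was found in 8 of the 48 promoters (16.7%), against 1.81% of all 27025 promoters in the table and 3.89% of the 9637 promoters of tested genes. The 8 were Cycs, Atp5g2, Cox6a1, Ttc19, Atp5l, Uqcr11, Uqcrc1 and Atp5k. With any base in the middle (GCGCANGCG) the share was 25% against 6.47% and 14.5%. The letters of an ERR element were found in 1 promoter, that of Atp5g3 (2.08%, against 0.407% of all promoters and 0.270% of those of tested genes), and those of CREB in Cycs, Ttc19 and Uqcrfs1 (6.25% against 1.88% and 3.43%). The ETS letters CCGGAAGTG were in Cox10, Cox15 and Uqcrh (6.25% against 2.06% and 4.77%), and the YY1 letters AAGATGGCG were in Cox10, Atp5j2 and Atpaf2 (6.25% against 1.49% and 3.39%). None of these letters was in the windows of Cox7a1 and Cox8b, the isoforms shared with muscle, or in those of their common partners Cox7a2 and Cox8a. A match is a description of the letters and not of binding.

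To ask whether CPF altered these genes, 59 members with a mean of at least 10 normalised counts were compared between groups within a test of all 13531 such genes (two-sided limma fit to log2 values with a pseudocount of 1, Benjamini-Hochberg adjusted). No member passed an adjusted p under 0.05, and neither did any other gene (0% higher and 0% lower). The smallest adjusted p of a member was 0.611, for Uqcc3. At an unadjusted p under 0.05, 4 members were higher with CPF (6.78% of 59, against 2.77% of all genes tested) and 0 lower (against 4.55%). These 4 were Uqcc3, Bcs1l and Uqcc1, which serve the assembly of complex III, and Atp5s, a factor that couples the parts of the ATP synthase. The groups did not overlap for 0 members, against 0.466% of all genes. edgeR and DESeq2 on the recovered reads also called 0 members.

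By sign, 41 of the 59 members were higher with CPF (69.5%) and the median log2 difference was 0.04, against 6705 of 13531 genes and a median of −0.00151 over all genes. The complexes did not have the same median. It was 0.07 for complex III (12 of 14 positive, range −0.03 to 0.30), 0.06 for complex V (14 of 18, −0.03 to 0.22), 0.03 for the assembly genes of complex IV (6 of 10, −0.13 to 0.10) and 0.01 for its subunits (9 of 16, −0.18 to 0.10). Differences between complexes were not tested. Without vehicle replicate 2 and CPF replicate 1 the medians of these 4 in turn were 0.17, 0.12, 0.06 and 0.06, with 48 of 59 members positive. Without CPF replicate 2 alone 35 of the 59 were positive (median 0.0068), and without CPF replicate 3 alone 31 were (median 0.02). In the set of replicates 1 to 3 alone 43 of the 59 were positive (median 0.04), and in that of replicates 4 to 6 alone 38 were (median 0.03).

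**Figure D2:**
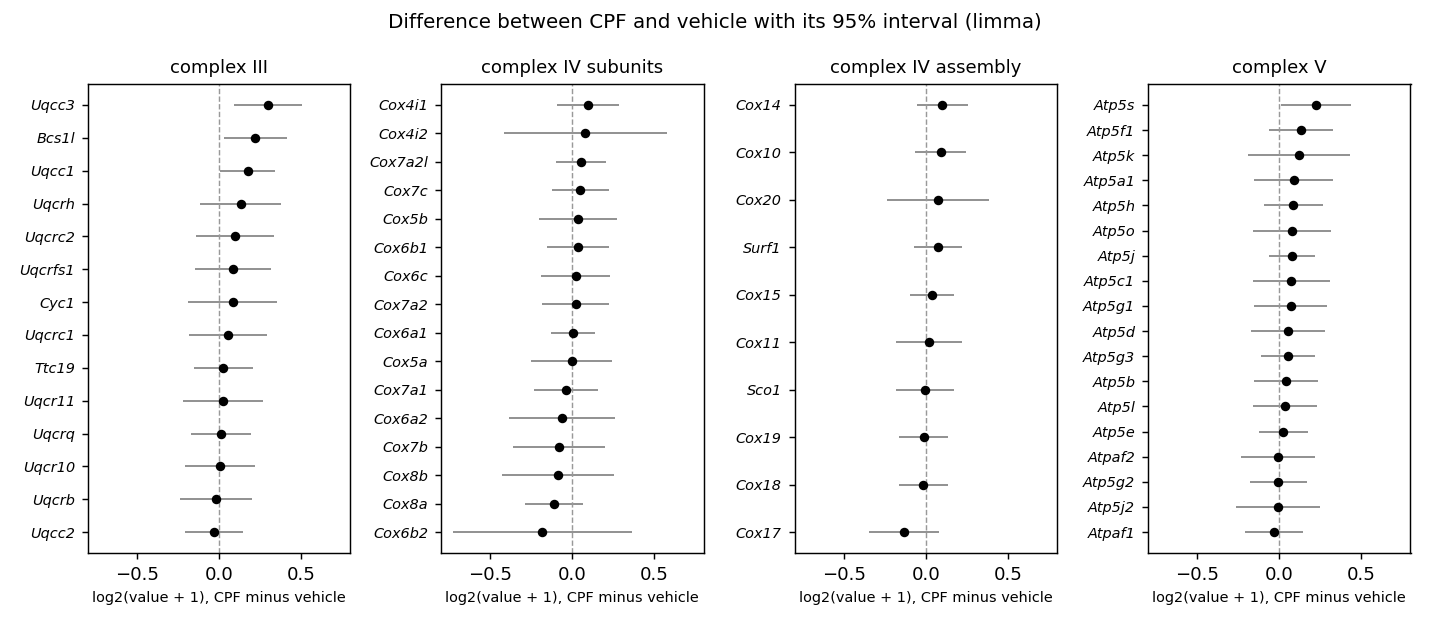
Difference in mean log2 of the normalised count plus 1, CPF minus vehicle, for the 58 tested members of complexes III, IV and V, with 95% intervals from limma (6 libraries per group). All intervals but those of Uqcc3, Bcs1l, Uqcc1 and Atp5s include 0, none is adjusted for the number of genes, and the widest are those of Cox6b2 and Cox4i2.

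Within complex III, 3 of the 5 assembly genes had the largest differences. Uqcc3, a small membrane protein needed for the early handling of cytochrome b (chr19:8880014-8880923, minus strand, GRCm38), had normalised counts of 121, 143 and 172 (lowest, median and highest) in vehicle and 158, 171 and 213 in CPF. All 6 CPF libraries exceeded the vehicle mean and 3 exceeded the highest vehicle library, vehicle replicate 1. The log2 difference was 0.30 ± 0.098 (SE, adjusted p = 0.611, 95% interval 0.09 to 0.51), and 0.25 without vehicle replicate 2 and CPF replicate 1. In the set of replicates 1 to 3 it was 0.45, and in that of replicates 4 to 6 it was 0.15.

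Bcs1l, the ATPase that inserts the Rieske protein into complex III (chr1:74588289-74592443, plus strand), had 211, 231 and 273 normalised counts in vehicle and 215, 281 and 315 in CPF. The groups overlapped because CPF replicates 1 and 5 lay under vehicle replicate 1, and 4 CPF libraries lay above all of vehicle. CPF exceeded vehicle by 0.22 ± 0.090 on the log2 scale (SE, limma adjusted p = 0.646). With 1 library left out at a time it ran from 0.18 without CPF replicate 2 to 0.29 without CPF replicate 1 (limma adjusted p = 0.0890 for the latter).

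Uqcc1, a partner in the same early handling of cytochrome b (chr2:155846894-155930310, minus strand), had 463, 582 and 603 normalised counts in vehicle and 518, 645 and 666 in CPF, where 5 libraries exceeded all of vehicle and CPF replicate 1 did not. The log2 difference was 0.18 ± 0.080 (SE, limma adjusted p = 0.677). With 1 library left out at a time it ran from 0.13 without vehicle replicate 2 to 0.23 without CPF replicate 1. The other assembly genes of complex III showed little difference, with −0.03 ± 0.083 for Uqcc2, which acts with Uqcc1, and 0.03 ± 0.085 for Ttc19.

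The 4 core subunits of complex III were all positive, from 0.06 for Uqcrc1 to 0.10 for Uqcrc2, and the 5 small subunits ran from −0.02 (Uqcrb) to 0.13 (Uqcrh). Cyc1 had 7828, 8145 and 9152 normalised counts in vehicle and 5429, 9358 and 10555 in CPF. Its CPF libraries lay both above and below the vehicle range, 4 above it and CPF replicate 1 below it. The log2 difference was 0.08 ± 0.127 (SE, limma adjusted p = 0.895), with 0.21 without vehicle replicate 2 and CPF replicate 1 and 0.03 without CPF replicate 2.

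**Figure D3:**
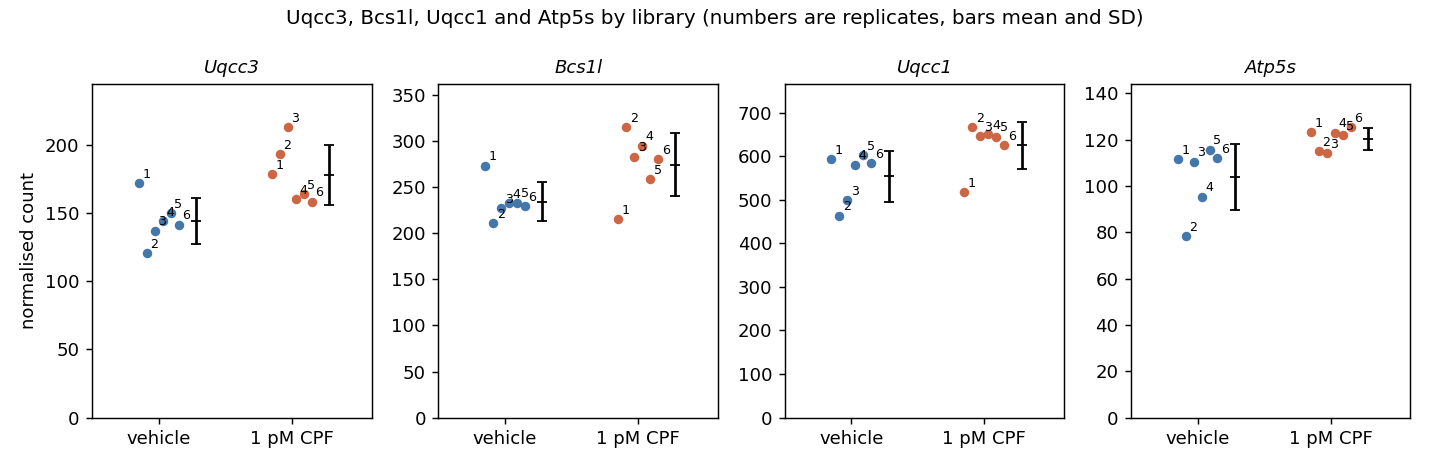
Normalised counts of Uqcc3, Bcs1l, Uqcc1 and Atp5s in each library (numbers are replicates, bars the mean and SD of 6 libraries, axis from 0). The CPF libraries sit higher on average but overlap vehicle for every gene, and vehicle replicate 2 is the lowest of all 12 libraries for all 4.

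The common subunits of complex IV showed no difference beyond the spread of the libraries. Cox4i1, a subunit that binds ATP, had 12877, 14711 and 15807 normalised counts in vehicle and 12243, 15754 and 18058 in CPF. Its log2 difference was 0.10 ± 0.088 (SE, limma adjusted p = 0.818), the highest of the 16 genes. Cox8a, the common form of the smallest subunit, had 5973, 6402 and 6850 in vehicle and 4835, 5816 and 7239 in CPF, a log2 difference of −0.11 ± 0.083 (adjusted p = 0.784). Cox7b had a log2 difference of −0.08 ± 0.131, Cox6a1 of 0.01 ± 0.063, Cox6b1 of 0.03 ± 0.089 and Cox7a2l, which joins complexes III and IV, of 0.05 ± 0.071. The CPF libraries spanned the whole vehicle range for Cox4i1, Cox8a, Cox7b, Cox6a1, Cox6b1 and Cox7a2l, with CPF replicate 3 the highest of all libraries for each.

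Among the tissue-specific isoforms, Cox7a1 was expressed on a par with its common partner. Cox7a1 (chr7:30184144-30186078, plus strand) had 1355, 1404 and 1638 normalised counts in vehicle and 1233, 1333 and 1852 in CPF. The CPF libraries lay on both sides of the vehicle range, with CPF replicate 4 the lowest and CPF replicate 3 the highest of the 12. The log2 difference was −0.04 ± 0.092 (SE, limma adjusted p = 0.947, 95% interval −0.23 to 0.16). Per kb it made up 54.2 ± 3.20% of the sum of Cox7a1 and Cox7a2 in vehicle and 53.2 ± 3.68% in CPF (SD, n = 6 in each), and 53.0 ± 3.21% in vehicle with the lengths of the principal transcripts.

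Cox8b, the muscle and brown fat form of subunit 8 (chr7:140898945-140900446, minus strand), was a minor form beside Cox8a. It had 212, 294 and 365 normalised counts in vehicle and 187, 293 and 356 in CPF. The groups overlapped almost fully, and the extremes were vehicle replicate 2, the highest, and CPF replicate 1, the lowest, which are the libraries that stood apart. The log2 difference was −0.09 ± 0.160 (SE, limma adjusted p = 0.923, 95% interval −0.43 to 0.26), and 0.09 without these libraries. Its share per kb of Cox8b and Cox8a together was 7.27 ± 1.40% in vehicle and 7.35 ± 1.12% in CPF.

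The remaining alternative forms were rare. Cox6a2, the heart and muscle form of subunit 6a, had 37.2, 49.0 and 72.1 normalised counts in vehicle and 43.9, 47.7 and 58.1 in CPF, which is 0.690 ± 0.163% per kb of Cox6a1 and Cox6a2 in vehicle. Cox4i2, a form known from lung and from low oxygen, had 19.3, 32.2 and 53.9 in vehicle and 23.0, 37.9 and 48.3 in CPF. Cox6b2, known from testis, had 10.3, 13.8 and 26.9 in vehicle and 9.46, 15 and 19.7 in CPF. All 3 overlapped between groups, vehicle replicate 2 held the lowest Cox6a2 and Cox4i2 of the 12 libraries, and their log2 differences were −0.06 ± 0.152, 0.08 ± 0.234 and −0.18 ± 0.257. The share of the alternative form per kb was thus above that of its partner for Cox7a1 alone among the 5 pairs of complex IV, and under 1% for Cox6a2, Cox4i2 (0.483%) and Cox6b2 (0.353%).

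Set against the partner in the same library, 7 isoform ratios were compared by an exact permutation test over all arrangements of 6 and 6 libraries (two-sided, smallest possible p = 0.00216). The log2 ratio in CPF minus that in vehicle was −0.06 ± 0.116 (SE) for Cox7a1 to Cox7a2 (exact p = 0.634) and 0.03 ± 0.159 for Cox8b to Cox8a (exact p = 0.874). It was −0.07 ± 0.171 for Cox6a2 to Cox6a1, −0.02 ± 0.221 for Cox4i2 to Cox4i1 and −0.22 ± 0.242 for Cox6b2 to Cox6b1. For the c ring of complex V, whose identical mature subunit is made by Atp5g1, Atp5g2 and Atp5g3, it was 0.02 ± 0.077 for Atp5g1 to Atp5g3 and −0.06 ± 0.036 for Atp5g2 to Atp5g3 (exact p = 0.149). All 7 had an adjusted p of 0.948. The ratio of Cox7a1 to Cox7a2 was highest in CPF replicate 1 (−0.35 on the log2 scale), where Cox7a2 was lowest, and the ratio of Cox8b to Cox8a was highest in vehicle replicate 2 (−4.03).

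**Figure D4:**
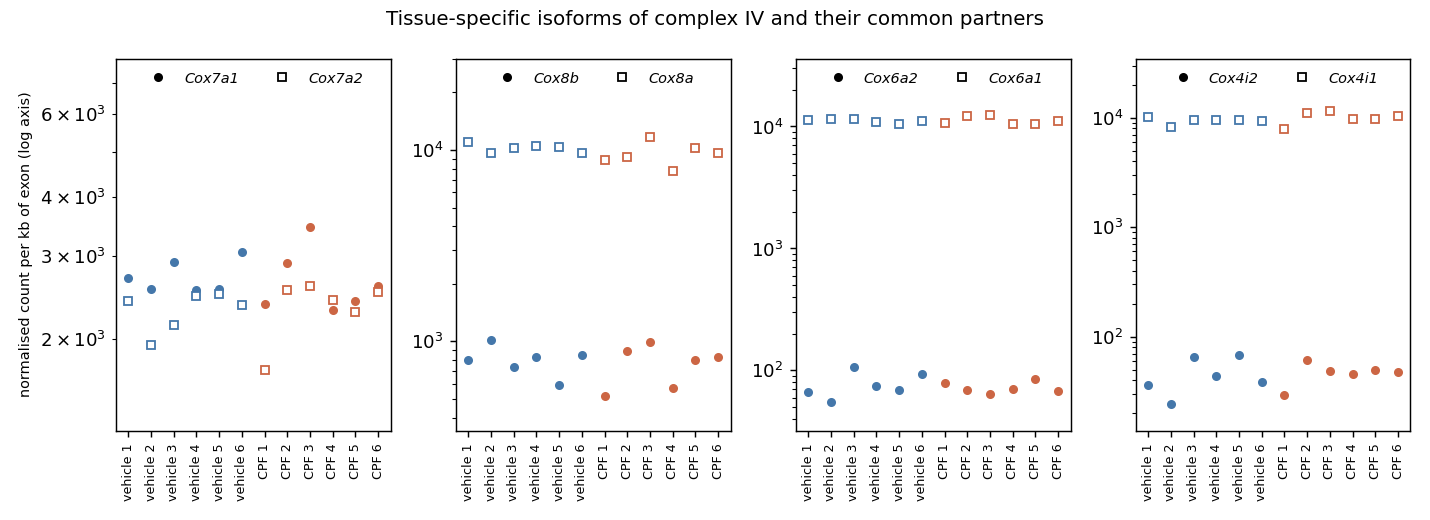
Normalised count per kb of exon (log axes, 1 panel per pair) in each of 12 libraries, with the tissue-specific isoform as filled circles and its common partner as open squares, vehicle in blue and CPF in orange. Cox7a1 and Cox7a2 lie together, Cox8b makes up at most 9.49% of Cox8b and Cox8a in any library, and Cox6a2 and Cox4i2 lie further below Cox6a1 and Cox4i1.

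The assembly genes of complex IV gave differences of either sign. Cox14, which stabilises newly made Cox1, had 955, 1122 and 1140 normalised counts in vehicle and 981, 1172 and 1361 in CPF, a log2 difference of 0.10 ± 0.073 (SE, limma adjusted p = 0.775). Cox10, which makes haem O, had 280, 299 and 319 in vehicle and 266, 330 and 345 in CPF (0.09 ± 0.072, adjusted p = 0.799). Cox17, a copper chaperone, had 273, 304 and 374 in vehicle and 246, 280 and 348 in CPF (−0.13 ± 0.10, adjusted p = 0.788). Groups overlapped for all 3, with 4 CPF libraries above the vehicle range for Cox14 and for Cox10 and CPF replicate 1 the lowest of all for Cox10 and Cox17. Surf1, Cox15, Cox11, Cox18, Cox19, Cox20 and Sco1 lay between −0.02 and 0.075.

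The members below the minimum for testing were counted from few reads. Sco2, a copper chaperone, had 2.40, 5.59 and 7.69 normalised counts in vehicle and 3.64, 7.73 and 12.5 in CPF, from 2 to 12 reads per library (two-sided exact permutation p = 0.186). Cox16, known in human cells to act in the insertion of copper, had 3.67, 9.39 and 18 in vehicle and 4.18, 7.39 and 11.9 in CPF, from 4 to 15 reads (exact p = 0.478), and the pseudogene Atp5l2-ps had 5.22, 9.39 and 14.4 and 4.37, 6.56 and 12.1 (exact p = 0.301). A difference was not detectable with so few reads. The exons of Sco2 overlap those of Tymp over 68.3% of their length and those of Cox16 overlap the gene Gm20498 over 56.8%, on the same strand, so their counts cannot be assigned with certainty.

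In complex V the 5 F1 genes were all positive, from 0.03 (Atp5e) to 0.09 (Atp5a1). Atp5b had 54123, 56484 and 58299 normalised counts in vehicle and 44216, 60018 and 64836 in CPF, with 5 CPF libraries above every vehicle library and CPF replicate 1 below them. Its log2 difference was 0.04 ± 0.092 (SE, limma adjusted p = 0.944), with 0.11 without vehicle replicate 2 and CPF replicate 1 and 0.0068 without CPF replicate 2. Of 7 stalk and membrane subunits 6 were positive, led by Atp5f1, the b subunit of the peripheral stalk, at 0.13 ± 0.091 (adjusted p = 0.764). Atp5f1 had 3279, 3893 and 4055 normalised counts in vehicle and 3046, 4358 and 4548 in CPF, where again 5 libraries lay above vehicle and CPF replicate 1 below it. Atp5j, another stalk subunit, had a log2 difference of 0.08 ± 0.065.

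The c ring was encoded mainly by Atp5g3. Per kb, Atp5g3 made up 64.2 ± 1.13% of the c ring transcripts in vehicle and 65.0 ± 0.842% in CPF, Atp5g2 32.5 ± 0.964% and 31.6 ± 0.896%, and Atp5g1 3.25 ± 0.282% and 3.34 ± 0.279%. With the lengths of the principal transcripts the order was the same, with Atp5g3 at 71.3% and Atp5g2 at 27.4% in vehicle. Their log2 differences were 0.05 ± 0.077, −0.01 ± 0.082 and 0.07 ± 0.105. Of the transcript of Atp5g2, 38.3% of the stretches of 50 bases also occur in other genes, so reads may have been lost or shared. The assembly factors Atpaf1 and Atpaf2, for the β and α subunits, were both slightly negative (−0.03 ± 0.083 and −0.01 ± 0.107).

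Atp5s (chr12:69724950-69744660, plus strand) had 78.3, 111 and 116 normalised counts in vehicle (SD 14.4) and 114, 122 and 125 in CPF (SD 4.72). All 6 CPF libraries lay above the vehicle mean and 4 above every vehicle library, while vehicle replicates 2 and 4 were low. On the log2 scale CPF was higher by 0.22 ± 0.10 (SE, limma adjusted p = 0.677), and 0.14 without vehicle replicate 2 and CPF replicate 1. The gene shared no stretch of 50 bases with other genes.

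The largest common movement of these genes was between libraries and not between groups. CPF replicate 1 was the lowest CPF library for 43 of the 59 tested members (72.9%), against 33.7% of all genes tested. Vehicle replicate 2 was the lowest vehicle library for 28 (47.5%, against 25.1%). CPF replicate 3 was the highest CPF library for 28 (47.5%, against 13.9%) and vehicle replicate 1 the highest vehicle library for 27 (45.8%, against 16.3%). These are counts over genes that vary together and carry no test.

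In CPF replicate 1 the members lay a median of 0.354 log2 units below their own median over the 12 libraries, and in vehicle replicate 2 a median of 0.178 below. Subunits and assembly genes differed in this. In CPF replicate 1 the 39 subunit genes of the 3 complexes had a median of −0.47 and were the lowest of their group in 33 cases, and 17 assembly genes had a median of −0.19 and were the lowest in 8. Complex III held a wide range, with −0.60 for its core subunits and −0.01 for its assembly genes. Cycs had a deviation of −0.74, with 1322 normalised counts against 2172 to 2440 in the other CPF libraries. Cox7a1, Cox8b and Cox6a2 together had a median of −0.12, which is the value of Cox7a1, and they did not move alike. Cox8b was at its lowest of the 12 libraries (187 normalised counts), and Cox6a2 lay among the other CPF libraries (53.2, others 43.9 to 58.1). In the same library the 11 brown adipocyte markers had a median of −0.73 and all 11 were the lowest of their group, and the preadipocyte and fibroblast markers had a median of 0.36. In vehicle replicate 2 the latter stood at 0.59 and the brown adipocyte markers at −0.15. The brown adipocyte markers were lower still in vehicle replicate 3 (−0.26, the lowest vehicle library for 7 of the 11). There the preadipocyte and fibroblast markers stood at 0.04. Fewer brown adipocytes and less of these transcripts per cell cannot be told apart in such libraries, and the part of the cell mixture in any result here was not tested.

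**Figure D5:**
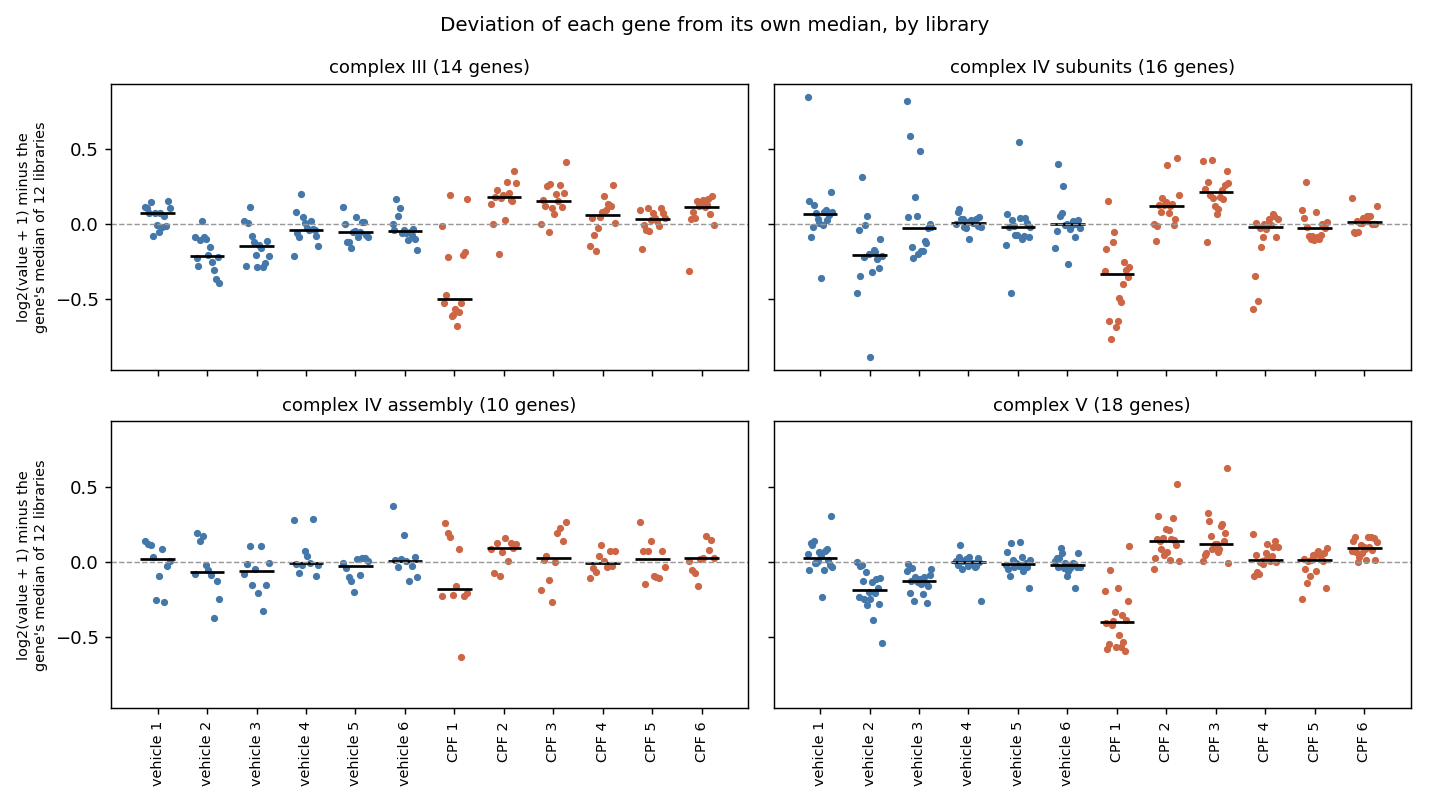
Log2 of the normalised count plus 1 minus the same gene's median over 12 libraries, 1 point per tested gene and a bar at the median of each library, by group of genes. CPF replicate 1 lies lowest in all 4 panels (medians −0.50, −0.33, −0.18 and −0.40), vehicle replicate 2 is the next lowest in all 4, and the assembly genes of complex IV vary least.

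The median SD of the members on the log2 scale was 0.115 in vehicle and 0.209 in CPF, against 0.158 and 0.170 for all genes tested. Without CPF replicate 1, 20 of the 59 members were higher with CPF at an unadjusted p under 0.05 (33.9%, against 8.48% of all genes tested) and 0 lower (against 7.96%), with a median difference of 0.11. Without it and vehicle replicate 2, 17 were higher (28.8%, against 7.38%) and 0 lower (against 6.96%). No member passed an adjusted p under 0.05 in either case (smallest 0.0862 and 0.0984). Leaving out vehicle replicate 2 alone left 1 member higher (1.69%, against 1.82%) and 0 lower (against 3.47%), with a median of 0.02.

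Other genes of the respiratory chain were set beside the members in the same fit. Of 38 nuclear genes named as subunits of complex I, among them Ndufa4, now counted with complex IV, 28 were higher with CPF (median 0.08), and all 4 genes of complex II were (median 0.07). At an unadjusted p under 0.05 there were 0 of these 42 genes in either direction. Of 15 further assembly genes outside the name rule 12 were higher (median 0.09, 1 at an unadjusted p under 0.05), and of 7 regulators 5 were (median 0.04), with Nrf1 at −0.12 and Ppargc1a at −0.26 the lower ones. The 6 genes of complexes III, IV and V encoded in mitochondrial DNA were all lower with CPF, with a median of −0.14 and log2 differences of −0.25 to −0.11, and 0 of them had an unadjusted p under 0.05. In CPF replicate 1, where the nuclear members were low, these 6 had a median deviation of 0.07. It was 0.29 and 0.30 in CPF replicates 2 and 3, and −0.57 to −0.43 in CPF replicates 4 to 6. In vehicle it was 0.18 to 0.42 in replicates 1 to 3 and −0.49 to −0.07 in replicates 4 to 6. The difference between these sets of replicates was thus present in both groups. The summed normalised counts of the 6 genes were the lowest in CPF replicate 1 (152632, against 186199 to 271396 in the other CPF libraries). That sum is nearly all mt-Co1 and mt-Cytb, with vehicle means of 188999 and 57239. The vehicle means of mt-Co2, mt-Co3, mt-Atp6 and mt-Atp8 were only 155 to 539. The sum and the median deviation thus weigh different genes, and the 6 were not shown to be spared in that library.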

How the data were processed

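RNA of 12 libraries (6 vehicle, 6 CPF) was prepared with a strand-specific kit. Per the labels and the study's methods, the authors used Trimmomatic for trimming, HISAT2 for alignment to GRCm38, htseq-count for counting per gene by strand and DESeq2 for normalisation, so that each deposited value is a signal in normalised counts and reads that map to several places were largely dropped. Their versions were not given in the sources used here. All values were whole reads within 0.01 read after division by 1 factor per library. The 12 ratio columns of that table, and the authors' own fold changes, p-values and ranked lists, were not used.

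Genes with a mean of at least 10 (13531 of 14775) were compared by limma 3.58.1 (R 4.3.3, trend and robust settings, pseudocount of 1, two-sided, Benjamini-Hochberg over all 13531). The fit was first tested on simulated data. Alternatives were edgeR 4.0.16, DESeq2 1.42.0, TMM scaling, filters at 50 or absent, a pseudocount of 0.1 or 10, weights per library, a replicate block, the sets of replicates 1 to 3 and 4 to 6 as a covariate or each alone, omission of single libraries or of both that stood apart, and, chosen after the data were seen, principal transcript length. Exon lengths, overlaps and shared stretches of 50 bases came from GENCODE M21 (GRCm38), without a search of the genome, and neighbours on the opposite strand were not counted as sharing. For 13 members over 10% of such stretches occur in other genes, so their levels are uncertain. Members under a mean of 10 and isoform ratios were compared by exact permutation (scipy 1.17.1).

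The genes named were those of the isoform families, those that the study names, and the 3 smallest p and the extremes of level in each group, with other members by range. The members and gene lists were chosen with earlier results of these data known. Other members given singly, such as Cycs, Surf1, Uqcrh and Atp5a1, fall outside this rule and were named after their values were seen.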

Additional observations from a re-analysis of the deposited data

Results flagged for a closer look

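A library was looked for that lay apart from the other 5 of its group, by a gap wider than Dixon's 95% critical value as a share of the group's whole range, in 84 groups of 6 values. It was found in 14, where chance gives about 1 in 20 for a single group. The groups share the same libraries and hold genes that vary together, so the count cannot be weighed against that rate. In most of the 14 the library was CPF replicate 1, which also stood apart over all genes.

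CPF replicate 1 was the lowest of the CPF libraries for Cox7b (1602 normalised counts, others 2580 to 3115), Cox7a2 (1619, others 2149 to 2446), Atp5b (44216, others 58422 to 64836), Atp5g3 (1837, others 2290 to 2479), Atp5g1 (188, others 266 to 306), Cyc1 (5429, others 8957 to 10555), Atp5f1 (3046, others 4158 to 4548) and Uqcc1 (518, others 625 to 666). It was also the lowest by the median deviation of complex III (−0.50 on the log2 scale), of the assembly genes of complex IV (−0.18) and of complex V (−0.40). Vehicle replicate 2 was the lowest vehicle library by the median deviation of the subunits of complex IV (−0.21).

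Vehicle replicate 1 had the highest Bcs1l of its group (273, others 211 to 233). CPF replicate 6 had the highest log2 ratio of Atp5g2 to Atp5g3 (−1.31, others −1.47 to −1.41).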

How the results depend on the processing

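No member passed an adjusted p under 0.05 under any of the 25 alternatives, where the smallest was 0.0799 for Bcs1l with library weights. Over all genes, calls were 0 higher and 4 lower with DESeq2, 3 and 19 with library weights, 8 and 14 within replicates 4 to 6, and 25 and 29 without vehicle replicate 2 and CPF replicate 1. Leaving out 1 library at a time gave 0 to 6 higher and 0 to 5 lower, and only the omission of CPF replicate 1 gave any. The cause was not tested. With libraries left out the medians were 0.039 to 0.188 for complex III, −0.028 to 0.105 for complex IV subunits, 0.0081 to 0.064 for its assembly genes and 0.027 to 0.14 for complex V.

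Signs turned for the following genes, none of which passed the test. In the set of replicates 4 to 6 these were Cox6b2 (0.000826), Atpaf1 (0.010), Cox6a1 (−0.021), Cox4i2 (−0.034) and Cox7a2 (−0.020), and in that of replicates 1 to 3 Cox7a1 (0.082). Without both libraries that stood apart these were Cox8b (0.089), Cox7b (0.015), Atp5g2 (0.025) and Ttc19 (−0.0021), and with library weights Atp5g2 (0.025) and Ttc19 (−0.017). With 1 library or both of these left out, the log2 differences ran from −0.047 to 0.065 for Atp5g2, −0.078 to 0.0094 for Atpaf1, −0.079 to 0.208 for Cox4i2, −0.026 to 0.029 for Cox6a1, −0.175 to 0.034 for Cox6a2, −0.015 to 0.111 for Cox6b1, −0.115 to 0.0021 for Cox7a1, −0.028 to 0.107 for Cox7a2, −0.140 to 0.052 for Cox7b, −0.170 to 0.089 for Cox8b and −0.0064 to 0.073 for Ttc19. For log2 ratios they ran from −0.139 to 0.109 for Cox4i2 to Cox4i1, −0.205 to 0.019 for Cox6a2 to Cox6a1, −0.064 to 0.198 for Cox8b to Cox8a, −0.029 to 0.083 for Atp5g1 to Atp5g3 and −0.081 to −0.042 for Atp5g2 to Atp5g3, the lowest of the last without CPF replicate 6 (exact p = 0.039 before adjustment). With principal transcript lengths the share in vehicle was 0.257% for Cox4i2, 0.581% for Cox6b2, 1.72% for Atp5g1 and 27.8% for Atp5g2 of each pair.

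Same-numbered libraries of the 2 groups had correlations of −0.213 to 0.256, not every one above 0.1. Such correlations cannot tell whether same-numbered samples were handled as pairs. With the replicate block 0 genes were called. Not every library correlated best with its own number.

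Few reads, 2 to 15 per library, limited Sco2, Cox16 and Atp5l2-ps. The exons of Sco2 and Cox16 overlap other genes on the same strand, and how far this lowered their counts was not tested.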
